A study of Mus musculus with 7 samples.

Results

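Enterocyte lipid handling genes are 10 genes with which the small intestine absorbs fat and cholesterol, and their open chromatin was mapped by ATAC-seq in mouse embryonic gut. Members are Apob, Mttp, Apoa1, Apoa4, Apoc3, Fabp1, Fabp2, Npc1l1, Abcg5 and Abcg8. ATAC-seq peaks of all libraries were merged into regions, and a region belonged to a gene when that gene's body was the nearest protein-coding one, within 100 kb. This gave 87 of 326695 regions, with at least 1 region for each of the 10 genes. The farthest of them lay 99016 bp from Apob and the nearest one left out 100586 bp from Apob, and both had a peak in KO stomach only.

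The study used 7 libraries, 1 per group: E16 stomach of a Sox2 knockout (KO), E16 intestine, E13 intestine, E16 colon, E16 hindstomach, E16 forestomach and E13 stomach, where E is the embryonic day. E13 libraries were made from YFP-positive cells of ShhCre; R26YFP/+ embryos, in which Cre driven by Shh switches on a fluorescent reporter in gut epithelium; cells of several embryos were pooled and the organs digested with trypsin. The wild-type E16 tissues came from epithelium of embryos of this genotype, freed with dispase and then collagenase for forestomach, with 10 mM EDTA for hindstomach and with 5 mM EDTA for proximal small intestine and colon. For the KO library, the sources used here name neither the Sox2 allele nor the Cre, the stomach part or the isolation. All groups are listed as untreated. SOX2 is a transcription factor that the embryonic stomach keeps and the intestine lacks.

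A peak was found over the Sox2 gene itself once in KO stomach, 2 times in hindstomach, once each in forestomach and E13 stomach, and in none of the 3 intestinal libraries; since the deleted part is not known here, these peaks do not check the KO label. Lists held between 81179 peaks in E13 intestine and 135743 in colon; they hold positions only, so the depth is unknown. Regions near 8 pan-epithelial genes numbered between 54 and 94 of 176 per library, and 3 to 5 of their 5 start-site windows had a peak. The region share was 30.7% in E13 intestine (beside 22.9% of all regions), 40.9% in colon (beside 40.8%) and 53.4% in KO stomach (beside 31.8%). Of all genes with a window, 43.4% (colon) to 64.3% (KO stomach) had a peak in it. Regions near markers of other cells numbered 22 (E16 intestine) to 32 (KO stomach and colon) of 104 for mesenchyme, 20 (E13 intestine) to 64 (colon) of 139 for blood and immune cells, 16 (E13 intestine) to 41 (colon) of 107 for endothelium and 13 (forestomach) to 30 (colon) of 81 for enteric neural crest. The part of such cells in the results was not tested. Since each group is a single library, nothing is known of the spread between replicates and no test was made. Intervals in parentheses are 95% Wilson intervals for counting error alone, and regions of 1 gene are not independent. A peak shows open chromatin, not expression, and more cells with an open site cannot be told apart from a more open site in each cell.

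Dietary fat reaches the blood in chylomicrons, particles that enterocytes build around apolipoprotein B. MTTP loads lipid onto that protein, other apolipoproteins cover the particle, fatty acid binding proteins carry lipid inside the cell, and cholesterol enters through NPC1L1 and is returned to the gut lumen by the paired half-transporters ABCG5 and ABCG8. Liver and yolk sac use several of these genes too. Villi form in the mouse intestine between both of the stages sampled.

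Start-site windows of 300 bases, 250 before a gene's start and 50 after it, are printed on the coding strand, 5′ to 3′, from RefSeq (GRCm38.p6), for a start open in both intestinal stages (Apob), 3 starts open in E16 intestine and at most 1 other library, and a start open everywhere (Mttp). Capitals mark bases under a peak of E16 intestine, or for Mttp bases under a peak in all 7 libraries; the capitals can be off by 1 base, since the files do not say whether positions count from 0 or 1.
Apob, chr12:7977427-7977726, plus strand: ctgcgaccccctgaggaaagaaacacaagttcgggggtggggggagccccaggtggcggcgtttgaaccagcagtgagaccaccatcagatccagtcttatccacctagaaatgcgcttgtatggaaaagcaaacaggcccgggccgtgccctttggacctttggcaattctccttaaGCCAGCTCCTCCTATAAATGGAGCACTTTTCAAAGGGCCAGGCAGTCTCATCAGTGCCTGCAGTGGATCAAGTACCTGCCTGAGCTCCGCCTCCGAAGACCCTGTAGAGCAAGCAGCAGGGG
Apoa1, chr9:46228380-46228679, plus strand: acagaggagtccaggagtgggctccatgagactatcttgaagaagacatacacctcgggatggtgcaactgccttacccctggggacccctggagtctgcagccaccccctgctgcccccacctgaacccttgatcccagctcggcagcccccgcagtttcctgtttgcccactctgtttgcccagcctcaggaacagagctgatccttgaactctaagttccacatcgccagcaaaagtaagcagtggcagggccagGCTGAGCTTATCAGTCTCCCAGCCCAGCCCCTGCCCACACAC
Npc1l1, chr11:6230196-6230495, minus strand: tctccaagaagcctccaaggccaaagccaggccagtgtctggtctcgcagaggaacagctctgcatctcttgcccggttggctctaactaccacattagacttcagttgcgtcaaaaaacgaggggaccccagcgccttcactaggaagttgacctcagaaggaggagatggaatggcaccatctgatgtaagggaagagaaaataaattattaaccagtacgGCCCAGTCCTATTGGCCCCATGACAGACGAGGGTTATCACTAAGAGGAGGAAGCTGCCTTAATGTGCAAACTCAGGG
Abcg8, chr17:84682871-84683170, plus strand: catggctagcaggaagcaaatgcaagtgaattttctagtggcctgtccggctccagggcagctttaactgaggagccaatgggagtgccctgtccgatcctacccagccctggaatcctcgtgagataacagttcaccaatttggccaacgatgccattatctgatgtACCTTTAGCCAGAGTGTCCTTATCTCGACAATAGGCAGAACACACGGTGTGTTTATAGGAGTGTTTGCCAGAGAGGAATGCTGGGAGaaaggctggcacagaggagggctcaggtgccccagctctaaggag
Mttp, chr3:138143369-138143668, minus strand: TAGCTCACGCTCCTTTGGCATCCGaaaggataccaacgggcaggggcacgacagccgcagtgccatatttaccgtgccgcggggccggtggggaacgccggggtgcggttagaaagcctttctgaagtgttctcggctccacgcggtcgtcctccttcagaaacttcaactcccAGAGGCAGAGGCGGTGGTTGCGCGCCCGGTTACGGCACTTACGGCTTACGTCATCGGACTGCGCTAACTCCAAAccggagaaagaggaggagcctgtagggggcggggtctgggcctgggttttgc

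Open starts were most frequent in E16 intestine. Of the 9 members with such a window, 3 had a peak in it in KO stomach, 6 in E16 intestine, 3 in E13 intestine, 1 in colon, 2 in hindstomach, 1 in forestomach and 2 in E13 stomach. Over all 17274 protein-coding genes with a window the shares were 64.3% in KO stomach, 47.3% in E16 intestine, 56.6% in E13 intestine, 43.4% in colon, 54.1% in hindstomach, 50.4% in forestomach and 59.9% in E13 stomach. Outside E16 intestine the members' windows thus held peaks less often than those of all genes, with counts too small to read further. Windows with a peak in E16 intestine and in no other library were found at 2 of the 9 members, Npc1l1 and Abcg5, beside 0.399% of all genes with a window. A peak in all 7 libraries was found at 1 member, Mttp, beside 38.1% of all genes. Apoa4, Fabp1 and Fabp2 had no peak in the window in any library, as did 32.6% of all genes.

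**Figure D1:**
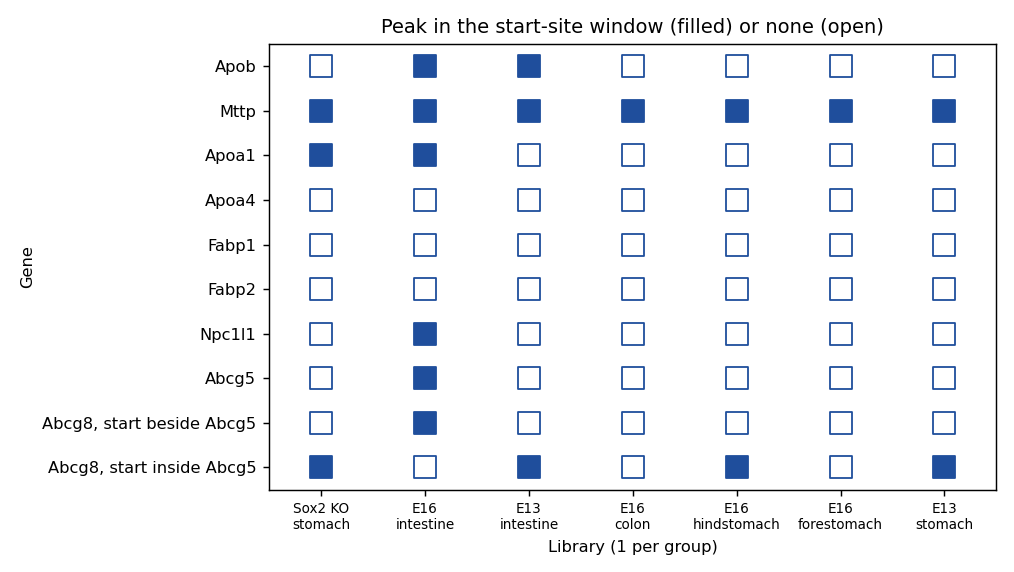
Peaks in the start-site windows (rows; both windows of Abcg8) in each library (columns, 1 library per group), filled where a peak overlaps the window. The KO stomach column has filled squares for 3 genes, E16 intestine for 6 and E13 intestine for 3.

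At Apob, which encodes the structural protein of chylomicrons, the start was covered in E16 intestine by a peak of 129 bp (chromosome 12, 7977604 to 7977733) and in E13 intestine by a peak of 63 bp (7977653 to 7977716). The smallest width in the E13 intestine list was 62 bp. No other library had a peak at the Apob start. The start of Apoa1, the main protein of high-density lipoprotein, had a peak in KO stomach (chromosome 9, 46228596 to 46228735) and in E16 intestine (46228637 to 46228744), and in none of the other 5 libraries. That of Npc1l1, the intestinal cholesterol importer, had a peak of 118 bp in E16 intestine (chromosome 11, 6230154 to 6230272). Abcg5 and Abcg8 lie head to head, and a single peak of 87 bp in E16 intestine (chromosome 17, 84683038 to 84683125) fell in the windows of both. That peak had the smallest width in its list, which 16.4% of E16 intestine peaks have. E13 intestine had a peak of 62 bp nearby (84682772 to 84682834), also the smallest width in its list. It lay outside both windows, with its region's centre 208 bp inside Abcg5 from the start. A second annotated start of Abcg8, inside the Abcg5 gene, had peaks in KO stomach, E13 intestine, hindstomach and E13 stomach, and none in E16 intestine, colon or forestomach.

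Motifs of gut transcription factors were searched as letters in these windows, on both strands. The CDX motif TTTATNG was in the windows of 5 members (Apob, Fabp1, Fabp2, Abcg5 and Abcg8), beside 11.2% of all genes with a window, and TTTATTG in that of Fabp2, beside 4.42%. The TATA box TATAAA was in 4 (Apob, Fabp1, Abcg5 and Abcg8), beside 14.9%. In Apob, Abcg5 and Abcg8 the CDX match overlaps the TATA box match, and Abcg5 and Abcg8 share their bases. The GATA motif AGATAA occurred in the shared window of Abcg5 and Abcg8, beside 11.3%, 3 times in all and 1 of them under the E16 intestine peak. CAAAGTTCA, a form of the HNF4 motif, was found in Apoa4 (beside 0.434%), where it lay under no peak. The HNF4 form CAAAGTCCA (0.527% of all) and the SOX motif CATTGT (12.2%) were in no member's window.

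Across all their regions, the lipid handling genes were open most often in E16 intestine. In KO stomach 30 of the 87 regions had a peak (34.5%, 25.3 to 44.9), beside 31.8% of all regions. In E16 intestine 43 did (49.4%, 39.2 to 59.7, beside 28.9% of all regions), and in E13 intestine 17 (19.5%, 12.6 to 29.1, beside 22.9%). Colon had 25 (28.7%, 20.3 to 39.0, beside 40.8%), hindstomach 24 (27.6%, 19.3 to 37.8, beside 33.3%), forestomach 16 (18.4%, 11.6 to 27.8, beside 26.1%) and E13 stomach 20 (23.0%, 15.4 to 32.9, beside 28.2%). The interval lay above the share of all regions in E16 intestine and below it in colon, and held it in the other 5 libraries.

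**Figure D2:**
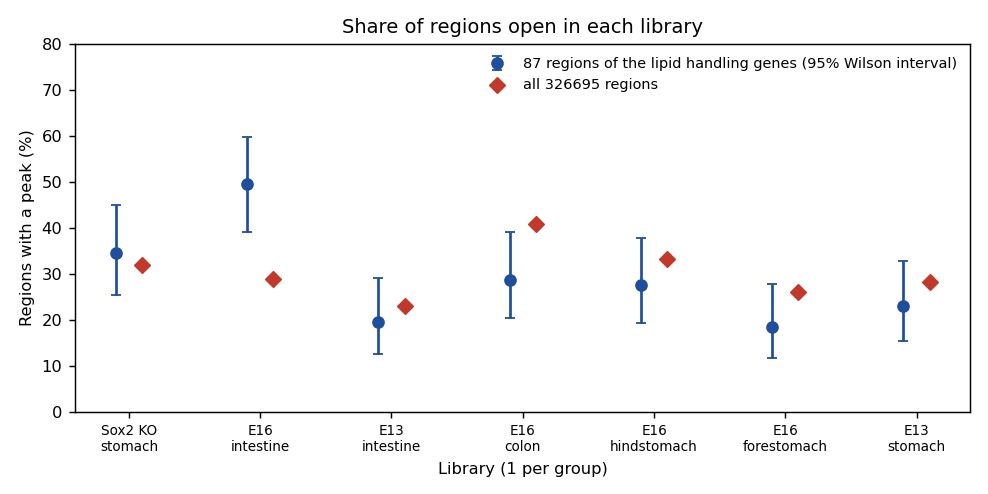
Share of regions with a peak (%) in each library, for the 87 regions of the lipid handling genes (circles, 95% Wilson intervals) and for all 326695 regions (diamonds). E16 intestine stands at 49.4% beside 28.9%, and colon at 28.7% beside 40.8%.

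Many E16 intestine regions were open nowhere else. Of the 30 regions open in KO stomach 9 were open in no other library (30.0%, 16.7 to 47.9), beside 28.0% of all KO stomach regions. Of the 43 regions open in E16 intestine, 22 were open in no other library (51.2%, 36.8 to 65.4), beside 22.3% of all E16 intestine regions. In E13 intestine 4 of 17 were (beside 28.7%), in colon 7 of 25 (beside 41.5%), in hindstomach 1 of 24 (beside 15.6%), in forestomach 3 of 16 (beside 14.1%) and in E13 stomach 3 of 20 (beside 26.9%). The 22 regions were spread over 7 members: Apob held 8, Mttp 5, Apoa4 3, Fabp2 and Npc1l1 2 each, and Abcg5 and Abcg8 1 each. Regions open in all 7 libraries numbered 4 (beside 4.46% of all regions), 1 each at Apob, Mttp, Apoa1 and Fabp2. Peaks of E16 intestine at the members had a median width of 121 bp, beside 130 bp for its whole list, and 7 of the 43 had the smallest width in the list. In E13 stomach 8 of 21 member peaks did (38.1%, beside 16.6% of its list), and in KO stomach 7 of 31 (22.6%, beside 10.4%). For E16 intestine the share was 16.3%, beside 16.4% of its list. All of its member peaks of smallest width but the Apob peak at 8034220 to 8034307 lay in regions open in E16 intestine alone.

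**Figure D3:**
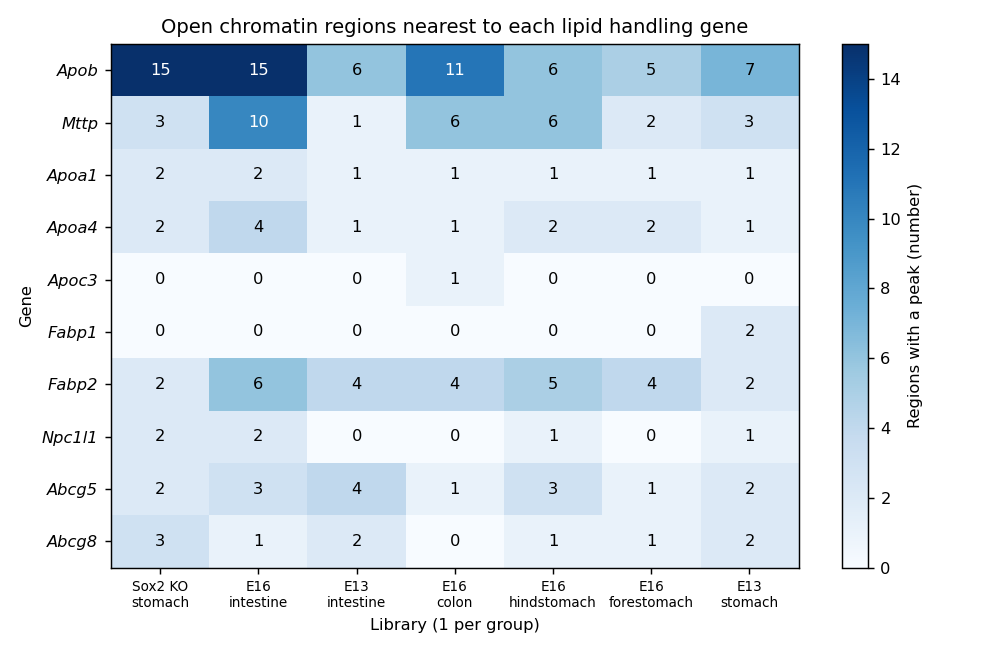
Number of regions with a peak (colour and digits) nearest to each lipid handling gene (rows) in each library (columns, 1 library per group). Apob and Mttp hold the most regions, with 15 and 10 in E16 intestine, while Fabp1 has regions in E13 stomach only. Regions in the overlap of Abcg5 and Abcg8 are counted for both genes.

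Apob (chromosome 12, 7977629 to 8016839) had 37 regions, the largest number among the members. KO stomach held 15 of them, E16 intestine 15, E13 intestine 6, colon 11, hindstomach 6, forestomach 5 and E13 stomach 7. KO stomach and E16 intestine thus had the same number, but they shared few: 12 were in KO stomach and not in E16 intestine, 12 in E16 intestine and not in KO stomach, and 3 in both. Inside the gene body, 2 of 5 regions were open in KO stomach, 4 in E16 intestine, 3 in E13 intestine, none in colon or hindstomach, 1 in forestomach and 2 in E13 stomach. Between 10 and 100 kb away KO stomach had 12 of 29 regions and E16 intestine 10. Among these, KO stomach peaks starting at 7878542, 7878963, 7905490, 7926188 and 8031786 were 71 bp wide, the smallest width in that list. E16 intestine peaks starting at 7920128, 8034220, 8059299 and 8101272 were 87 bp wide, the smallest width in theirs.

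Downstream of Apob, the regions at 8020410 to 8020521, 8034192 to 8034322 and 8071843 to 8072090 were open in E16 intestine, colon and hindstomach and in no other library. A region at 7926151 to 7926334, upstream of the gene, was open in all 7 libraries. The region at 7978488 to 7978824, just inside the gene, was open in KO stomach, both intestinal stages, forestomach and E13 stomach, and not in colon or hindstomach. Nearness does not show which gene a distant region acts on, and 29 of the 37 regions lay over 10 kb from the gene.

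Mttp (chromosome 3, 138089855 to 138143418, minus strand) encodes the protein that transfers lipid to apolipoprotein B. Of its 16 regions KO stomach held 3, E16 intestine 10, E13 intestine 1, colon 6, hindstomach 6, forestomach 2 and E13 stomach 3. The start region was a single peak of 806 bp in KO stomach and 697 bp in E16 intestine, while E13 intestine and colon each had 2 peaks in it. In E13 intestine the start region was the only one, whereas at E16 a row of regions ran through the gene. Those at 138106322 to 138106505, 138121590 to 138121886 and 138133507 to 138133754, all inside the gene, and both regions beyond its 3′ end were open in E16 intestine alone. Regions at 138094267 to 138094533 and 138110972 to 138111503 were shared with colon and hindstomach.

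**Figure D4:**
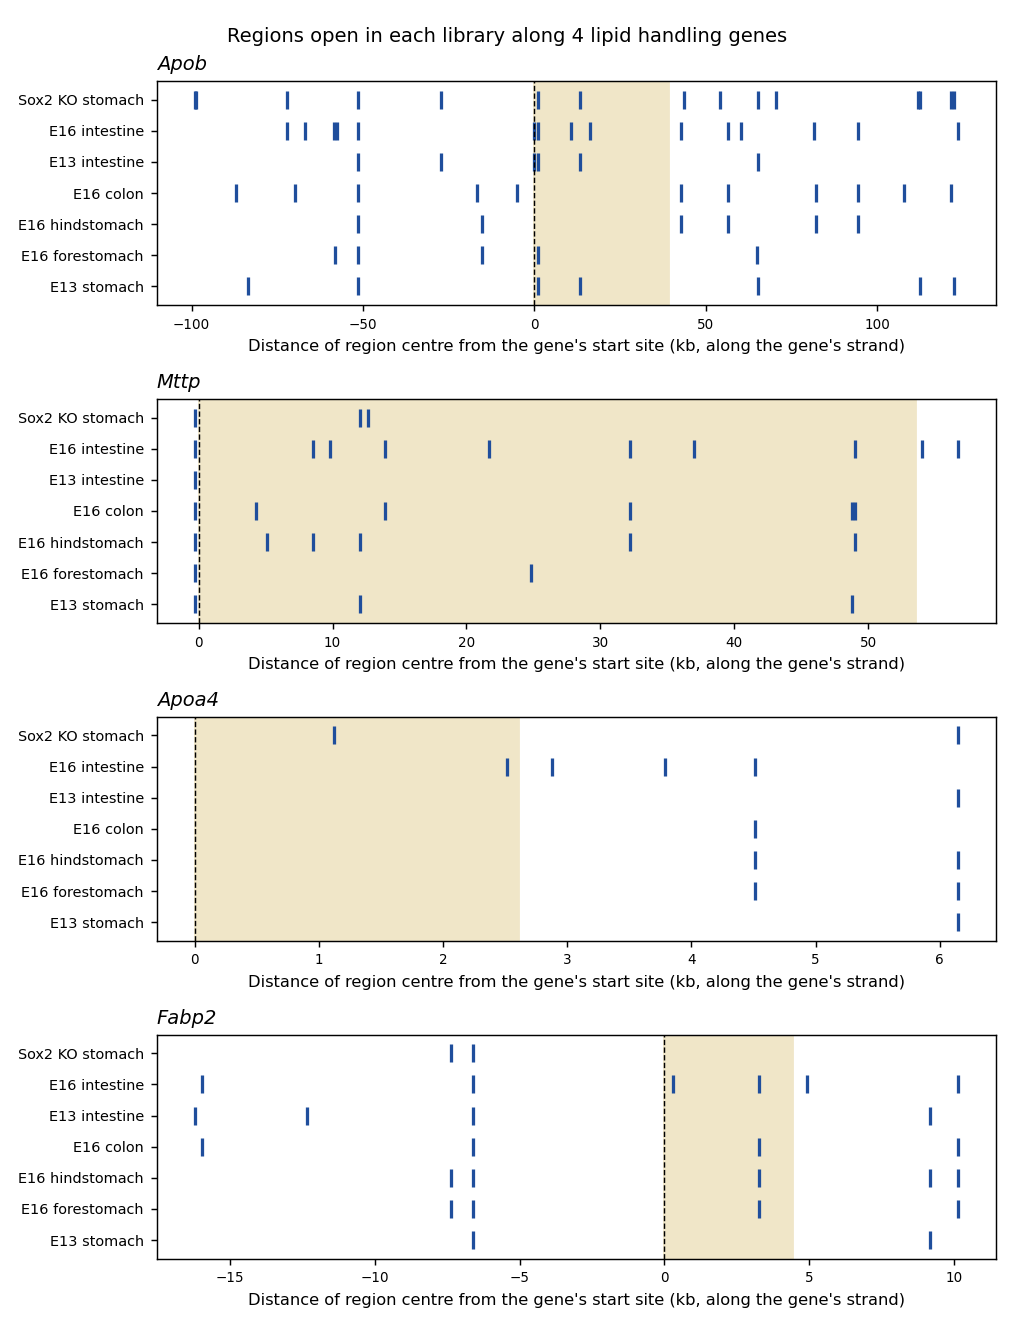
Positions of regions with a peak in each library (rows) along Apob, Mttp, Apoa4 and Fabp2, as the distance of the region's centre from the gene's start (kb, along the strand); shading marks the gene body. Along Mttp E16 intestine has 10 regions and E13 intestine 1, at the start.

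Apoa1, Apoc3 and Apoa4 form a gene cluster on chromosome 9. Apoa1 (46228630 to 46230469) had 2 regions, the start described above and a region at 46229939 to 46230373 that all 7 libraries held. Apoc3 (46233050 to 46235636), whose protein slows the clearance of triglyceride-rich particles, had 1 region, a colon peak of 86 bp, the smallest width in that list. Apoa4 (46240844 to 46243458), a chylomicron apolipoprotein made by enterocytes, had 6 regions, of which KO stomach held 2, E16 intestine 4, E13 intestine 1, colon 1, hindstomach 2, forestomach 2 and E13 stomach 1. Its E16 intestine regions lay around the 3′ end and beyond it. Of these the regions at 46243286 to 46243437, 46243599 to 46243836 and 46244580 to 46244688 were open in E16 intestine alone. The region at 46245270 to 46245438 was shared with colon, hindstomach and forestomach. A KO stomach peak at 46241916 to 46242017, inside Apoa4, was in no other library.

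Of the fatty acid binding protein genes, Fabp2 had regions in all 7 libraries and Fabp1 in 1. Fabp2 (chromosome 3, 122895072 to 122899506), the intestinal form, had 10 regions, with 2 in KO stomach, 6 in E16 intestine, 4 in E13 intestine, 4 in colon, 5 in hindstomach, 4 in forestomach and 2 in E13 stomach. A region just after its start (122895281 to 122895492) and one past its 3′ end (122899943 to 122900050) were open in E16 intestine alone. Those at 122898145 to 122898556 and 122905004 to 122905440 were open in all 4 wild-type E16 tissues and in neither E13 library nor KO stomach. Fabp1 (chromosome 6, 71199879 to 71205034), the form shared with liver, had 2 regions, both in E13 stomach alone, and none in the other 6 libraries. The peak inside the gene was 77 bp wide, the smallest width in that list, and the upstream one 92 bp.

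Among the sterol transporters, Npc1l1 (chromosome 11, 6211011 to 6230245, minus strand) had 4 regions, with 2 in KO stomach, 2 in E16 intestine, none in E13 intestine, colon or forestomach, 1 in hindstomach and 1 in E13 stomach. KO stomach and E16 intestine shared none of them: the start and a region 8657 bp upstream of the gene were in E16 intestine alone. That upstream peak was 87 bp wide, the smallest width in its list. Abcg5 (chromosome 17, 84658174 to 84683011, minus strand) and Abcg8 (84676302 to 84700333) overlap in the annotation used, and 2 regions count for both. Abcg5 had 2 regions in KO stomach, 3 in E16 intestine, 4 in E13 intestine, 1 in colon, 3 in hindstomach, 1 in forestomach and 2 in E13 stomach. Abcg8 had 3 regions in KO stomach, 1 in E16 intestine, 2 in E13 intestine, none in colon, 1 in hindstomach, 1 in forestomach and 2 in E13 stomach. It was the only one of the 10 members with fewer regions in E16 intestine than in KO stomach.

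The comparison of E16 with E13 intestine addressed maturation of the gut epithelium. It gave 36 E16-only regions, 10 E13-only and 7 shared, so that 78.3% (64.4 to 87.7) of unshared member regions were E16-only, beside 58.7% of all unshared regions. A gene leans to a library when that library has more regions of its own. Leaning to E16 were 6 members (Apob, Mttp, Apoa1, Apoa4, Fabp2 and Npc1l1; 54.3% of all genes with an unshared region), and 2 leaned to E13 (Abcg5 and Abcg8; 30.9%). Mttp had 9 E16-only regions and no E13-only one, and Apoa4 4 and 1. Stage went with isolation here, since E13 cells were sorted after trypsin and E16 epithelium was freed with EDTA. Gut segment may differ as well, since the E16 epithelium was of proximal small intestine and the E13 label says only intestine. Stage, isolation and segment cannot be told apart. Regions near markers of blood and immune cells were also more in E16 than in E13 intestine (40 and 20 of 139). So were those of endothelium (23 and 16 of 107), hepatocytes (17 and 10 of 57) and enteric neural crest (25 and 21 of 81). Those of mesenchyme were fewer (22 and 25 of 104). In E16 intestine these shares were 28.8%, 21.5%, 29.8%, 30.9% and 21.2%, in that order, beside 28.9% of all regions. In E13 intestine they were 14.4%, 15.0%, 17.5%, 25.9% and 24.0%, beside 22.9%. Pan-epithelial genes had 61 and 54 of 176 (34.7% and 30.7%). Among marker genes with an unshared region, all 4 for blood and immune cells leaned to E16, beside the 54.3% given above. So did 3 of 4 for endothelium (75.0%) and 5 of 7 for hepatocytes (71.4%). No gene of these lists leaned to E13, beside 30.9%. Enteric neural crest genes leaned 2 and 2, mesenchyme genes 3 to E16 and 4 to E13, and pan-epithelial genes 4 and 2. The part of other cells in the result was not tested.

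Against the other E16 tissues, E16 intestine held more member regions of its own than each. Against hindstomach there were 28 E16 intestine-only, 9 hindstomach-only and 15 shared regions (75.7%, 59.9 to 86.6, beside 43.0% of all unshared regions). Among 8 members with an unshared region, 6 leaned to intestine (75.0%, beside 28.8% of all such genes) and none to hindstomach (beside 57.5%). Against forestomach the counts were 34, 7 and 9 (82.9%, 68.7 to 91.5, beside 54.8%). Here 7 of 8 members with an unshared region leaned to intestine (87.5%, beside 47.3%) and none to forestomach (beside 37.3%). Forestomach was freed with other enzymes than intestine, so tissue and isolation cannot be told apart there. Against colon the counts were 28, 10 and 15 (73.7%, 58.0 to 85.0, beside 32.8%). Here 8 of 9 members with an unshared region leaned to intestine (88.9%, beside 24.5%) and 1, Apoc3, to colon (11.1%, beside 61.5%). At Apob 11 regions were intestine-only and 7 colon-only, at Mttp 6 and 2. These comparisons share the E16 intestine library. The colon list was the longest, and with every list cut to its 81179 widest peaks 26 of 27 unshared member regions were intestine-only (96.3%, 81.7 to 99.3), beside 49.2% of all unshared regions under that setting.

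**Figure D5:**
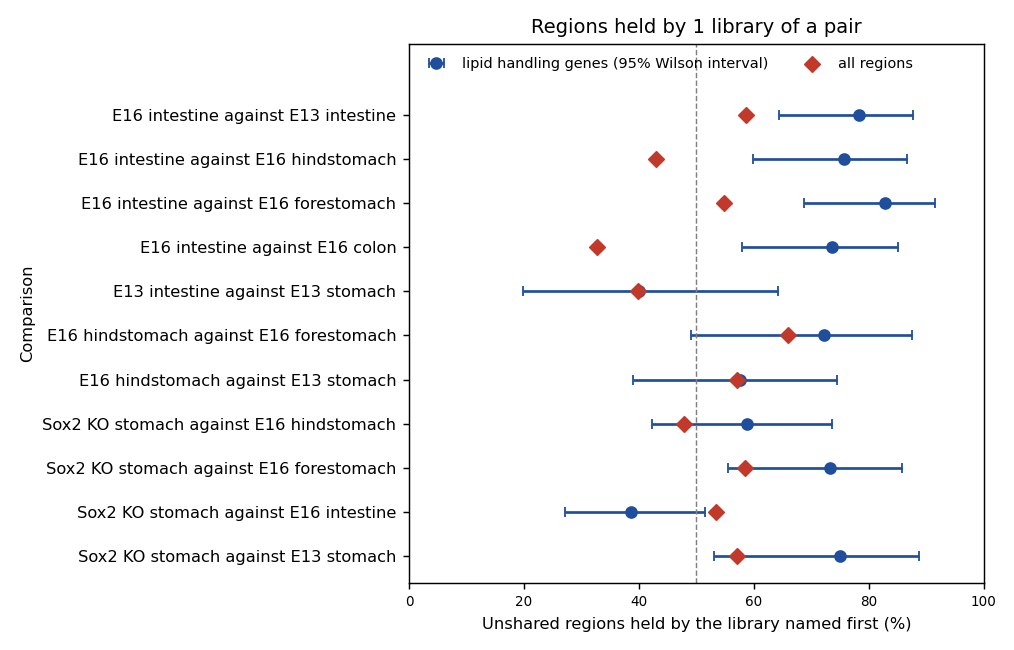
Share (%) of unshared regions held by the library named first in each of 11 pairs, for the lipid handling genes (circles, 95% Wilson intervals) and all regions (diamonds); the dashed line marks 50%. Circles stand at 73.7% to 82.9% in the 4 comparisons that name E16 intestine first.

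Between intestine and stomach at E13, the member share was close to that of all regions. E13 intestine held 6 regions of its own, E13 stomach 9, and 11 were shared, so 40.0% (19.8 to 64.3) of the unshared were in intestine, beside 39.9% of all unshared regions. Among 7 members with an unshared region, 2 leaned to intestine (28.6%, beside 26.8% of all such genes) and 4 to stomach (57.1%, beside 58.3%). With every list cut to its widest peaks the direction turned, with 8 of 11 unshared regions in intestine (72.7%, 43.4 to 90.3), beside 48.5% of all unshared regions, which the interval holds. Within the stomach, hindstomach had 13 regions of its own, forestomach 5, and 11 were shared (72.2%, 49.1 to 87.5, beside 66.0% of all unshared regions). Leaning to hindstomach were 5 of 6 members with an unshared region (83.3%, beside 67.6%) and to forestomach none (beside 19.1%). Isolation differed in this pair and in the next, so it cannot be told apart from tissue or stage. Hindstomach against E13 stomach gave 15, 11 and 9 (57.7%, 38.9 to 74.5, beside 57.1%), with 4 members leaning to hindstomach (beside 56.9%) and 3 to E13 (beside 29.2%).

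The library labelled Sox2 KO stomach was set against the wild-type gut. KO stomach had 20 member regions that hindstomach lacked, 14 that hindstomach alone of the pair had, and 10 shared (58.8%, 42.2 to 73.6, beside 47.9% of all unshared regions). Leaning to KO were 4 members (beside 42.3% of all genes with an unshared region) and 3 to hindstomach (beside 43.7%). Of the 20 KO-only regions 14 were at Apob, and without that gene KO stomach had 6 of 15 unshared regions (40.0%), so the direction rests on it. It turned also within 25 kb of the gene bodies, where 10 of 22 were KO-only (45.5%, beside 51.6% of all unshared regions). Against forestomach the counts were 22 KO-only, 8 forestomach-only and 8 shared (73.3%, 55.6 to 85.8, beside 58.5%). Here 6 of 8 members with an unshared region leaned to KO (75.0%, beside 59.7%) and 1 to forestomach (12.5%, beside 27.6%). Against E13 stomach the counts were 15, 5 and 15 (75.0%, 53.1 to 88.8, beside 57.1%). Here 5 of 8 members with an unshared region leaned to KO (62.5%, beside 59.5%) and 1 to E13 (12.5%, beside 29.1%). These comparisons share the KO library, whose isolation and stomach part are not known here, so genotype cannot be told apart from either. E13 stomach differs from the KO library in stage as well.

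How many intestinal regions of these genes KO stomach held depended on which intestinal regions were counted, as it did over all regions. Of the 17 member regions of E13 intestine 11 were found in KO stomach (64.7%, 41.3 to 82.7), beside 54.7% of all E13 intestine regions. Of 43 member regions open in any intestinal library and in neither wild-type E16 stomach part, 6 were (14.0%, 6.56 to 27.3), beside 9.29% of all such regions. Of 27 member regions open in E16 intestine and in neither wild-type E16 stomach part, 2 had a peak in KO stomach (7.41%, 2.06 to 23.4), beside 7.01% of all such regions. These 2 were the start of Apoa1 and a region upstream of Apob at 7905481 to 7905569. In the Apob region the KO stomach peak was 71 bp wide, the smallest width in its list. Against E16 intestine itself, KO stomach had 22 regions of its own, E16 intestine 35, and 8 were shared (38.6%, 27.1 to 51.6, beside 53.4% of all unshared regions). Among 7 members with an unshared region, 1 leaned to KO, Abcg8 (14.3%, beside 54.2%), and 4 to E16 intestine (57.1%, beside 33.6%). Tissue, genotype and isolation cannot be told apart in this pair. Of the 20 member regions of E13 stomach 15 were found in KO stomach (75.0%, 53.1 to 88.8), beside 60.7% of all E13 stomach regions. Of the 11 regions held by both wild-type E16 stomach parts KO stomach had 6 (54.5%, 28.0 to 78.7), beside 59.0%.

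Other genes of the pathway were counted from a list of 41 genes in 6 roles. In the comparison of E16 with E13 intestine, 20 leaned to E16 and 8 to E13 of the 34 with an unshared region. These shares, 58.8% and 23.5%, were close to the 54.3% and 30.9% of all genes. Of 10 genes for chylomicron assembly and lipid droplets 9 leaned to E16 and none to E13. Genes of lipid uptake and activation leaned 3 and 2, re-esterification 2 and 2, and other apolipoproteins and sterol export 1 and 0. Bile acid handling leaned 2 and 1, and lipid and enterocyte regulators 3 and 3. By share of regions, 39.4% (35.0 to 43.9) of those of the 41 genes were open in E16 intestine, beside 28.9% of all regions. Chylomicron assembly and lipid droplets had 53.3%, re-esterification 48.4% and regulators 38.6%, beside 49.4% for the members. Other apolipoproteins and sterol export had 35.4%, lipid uptake and activation 32.7% and bile acid handling 25.5%. The 41 genes stood above all regions in every library, as in hindstomach at 42.8%, beside 33.3%. Among the chylomicron assembly genes was Mia2, which helps load large cargo in the endoplasmic reticulum, with 6 E16-only and no E13-only regions. Sar1b, the GTPase of the vesicles that carry chylomicrons, had 5 E16-only and no E13-only regions. Gpat3, an acyltransferase of triglyceride synthesis, had 11 E16-only and 3 E13-only regions. The bile acid receptor gene Nr1h4 had 7 and 1, and Acsl3, which encodes a fatty acid activating enzyme, 7 and 3.

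Against hindstomach, 11 of the 32 pathway genes with an unshared region leaned to E16 intestine (34.4%, beside 28.8% of all genes). Leaning to hindstomach were 18 (56.2%, beside 57.5%), so both were close to the shares of all genes. Of the 10 genes of chylomicron assembly and lipid droplets 3 leaned to intestine and 3 to hindstomach. Sar1b had 5 intestine-only and no hindstomach-only regions, Gpat3 6 and 2 and the enterocyte transcription factor Hnf4g 7 and 3, while Ppara, the fatty acid sensing nuclear receptor, had 2 and 7 and the sterol exporter gene Abca1 6 and 10. Against colon, 13 of 34 leaned to E16 intestine (38.2%, beside 24.5% of all genes) and 19 to colon (55.9%, beside 61.5%). All 6 genes of lipid uptake and activation leaned to colon, as with the fatty acid transporter Cd36 at 2 intestine-only and 8 colon-only regions, while 7 of 10 genes of chylomicron assembly and lipid droplets leaned to intestine and 1 to colon. Slc10a2, the ileal bile acid transporter, had 1 and 7, Dgat2, an enzyme of triglyceride synthesis, 2 and 7, and Plin2, a lipid droplet coat protein, 4 and 0.

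Brush-border and stomach genes give the scale. Between E16 and E13 intestine, 78.3% of the unshared regions of the lipid handling genes were E16-only, beside 65.4% (55.8 to 73.8) of those of 18 brush-border genes, which equip the enterocyte surface. Against colon, 73.7% (58.0 to 85.0) of the lipid handling genes' unshared regions were E16 intestine-only, beside 44.6% (34.8 to 54.7) for the brush-border genes. Against hindstomach the shares were 75.7% for the lipid handling genes, 64.4% (54.2 to 73.6) for the brush-border genes and 17.5% (10.0 to 28.6) for 17 glandular stomach genes. Against forestomach they were 82.9% for the lipid handling genes and 73.6% (63.4 to 81.7) for the brush-border genes. The differences between gene groups were not tested. Near 8 hepatocyte genes, 17 of 57 regions (29.8%) were open in E16 intestine, close to the 28.9% of all regions. Of their 7 start-site windows none had a peak there, beside 47.3% of all genes with a window. The part of liver cells in the results was not tested.

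The protein-coding genes whose region counts over the 7 libraries came closest to the summed counts of the members were Myl1, Arf2, Kif27, Slc13a2 and Bnip5, out of 7938 with at least 10 regions. Pearson's r lay between 0.931 for Bnip5 and 0.961 for Myl1, a description over 7 libraries that share their list lengths. Slc13a2, a dicarboxylate transporter gene, had 7 regions in KO stomach, 9 in E16 intestine, 2 in E13 intestine, 4 in colon, 3 in hindstomach, 3 in forestomach and 2 in E13 stomach.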

How the data were processed

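The deposited files are ATAC-seq peak lists, 1 per library, with 3 columns (chromosome, start, end) and no score, height or read count. Per the submitters' processing notes the tools were cutadapt, Bowtie2 and MACS2 and the builds GRCm38 and mm10; their versions, the peak threshold and any pooling of libraries are not stated there. Peaks on the 19 autosomes and X were joined into regions where they overlapped by at least 1 bp. Each region was given to the nearest RefSeq protein-coding gene body (GRCm38.p6) within 100 kb, ties counting for each gene. Positions are printed as deposited, and starts were read as counted from 0 for the start-site windows.

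The members and gene lists were chosen with earlier results of these data known; the start-site windows and the alternative without Apob were chosen after seeing the data. The text names all 10 members, the 5 other pathway genes with the largest excess in either direction in each of 3 comparisons, and the 5 genes most like the members by Pearson's r. A pathway gene that this rule names is not reported here. The processing alternatives were a joining overlap of 25 bp, a limit of 25 kb, gene bodies extended by 10 kb and no region within 1 kb of a gene end; another kept the widest peaks of each list, up to the length of the shortest, in place of a stricter threshold. Counting was done in Python 3.11.15 with numpy 2.4.6, pandas 2.3.3 and scipy 1.17.1, figures were drawn with matplotlib 3.10.9, and the counting was checked on simulated data.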

Additional observations from a re-analysis of the deposited data

How the results depend on the processing

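For 18 results, the share of member regions per library and the share of unshared regions in each of 11 pairs, 6 alternatives gave 108 values, of which 104 stayed within the counting interval of the reported share. The alternatives reuse many of the same regions and the intervals are wide, so staying within them says little. With every list cut to its 81179 widest peaks, E16 colon held 16.9% of member regions (32.4% of all regions), E16 intestine 96.3% of those unshared with colon (49.2% of all), and E13 intestine 72.7% of those unshared with E13 stomach (48.5% of all). Without Apob, KO stomach held 40.0% of the regions unshared with hindstomach. In the pairs 63 of 66 alternatives stayed on the same side of 50%, and the exceptions are that value of E13 intestine and, for KO stomach against hindstomach, the values without Apob and within 25 kb (45.5%). The 50% mark is not the share of all regions, which ran from 32.8% to 66.0% over the pairs. The cause of these moves was not tested. No paired analysis was possible because each group has 1 library. The lists carry no depth, so a missing peak may be a site that was not detected.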

Other observations

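Genes whose start-site window had a peak in E16 intestine and in none of the other 6 libraries numbered 69 of 17274. Beside Npc1l1 and Abcg5 they include genes known from absorptive epithelium, picked here from the 69 after their values were seen. Sis encodes sucrase-isomaltase, a sugar-digesting enzyme of the brush border, and Mep1a a brush-border protease. Amn encodes the partner of cubilin in vitamin B12 uptake, Slc3a1 and Slc7a9 both chains of a cystine transporter, Slc26a3 a chloride exchanger, Slc51b a chain of the basolateral bile acid exporter and Abcc2 an apical export pump. From the gene lists, the 69 hold 2 of 9 lipid handling genes with a window, 1 of 32 other lipid pathway genes and 2 of 16 brush-border genes. The rest include predicted genes and genes known from other tissues, such as Neurog2, Insm2 and S100b.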
